A study of Mus musculus with 8 samples.

Results

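The *Cyp3a* family with *Por* and *Alas1* was examined in liver RNA of *Apoe*-/- mice that received ISOGK or vehicle. The genes were chosen by symbol from the table of raw counts: 8 *Cyp3a* genes of the mouse, *Por* and *Alas1*, 10 genes in all. Of these, 7 were measured among the 16540 gene symbols of the table, and *Cyp3a16*, *Cyp3a41a* and *Cyp3a57* were not analysed here. After the filter on low counts 6 of the 7 were tested among 12307 genes, and *Cyp3a44*, with 0 to 2 counts per library, was left out by the filter. All mice were male, lacked *Apoe*, the gene of apolipoprotein E, and ate a Western diet, so both groups share the knockout and the diet. ISOGK is isoginkgetin, a biflavonoid of *Ginkgo biloba* that the study examined as an inhibitor of ATP citrate lyase. A daily intraperitoneal dose of 20 mg/kg was given to 4 mice over 8 weeks, and 4 other mice received the vehicle, with 1 liver library per mouse. The columns of the vehicle group are named for its solvent, DMSO, and the age of the mice is not given in the sources used here.

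Cytochromes P450 of the CYP3A family sit in the endoplasmic reticulum of hepatocytes and oxidise drugs, steroids and bile acids. Each enzyme carries a heme group and takes electrons from cytochrome P450 oxidoreductase, the product of *Por*, with cytochrome b5 as an additional donor. The heme is made in the liver by a pathway whose first and rate-limiting step is 5-aminolevulinate synthase 1, the product of *Alas1*. Transcription of *Cyp3a11* is known to be raised by the nuclear receptors PXR (*Nr1i2*) and CAR (*Nr1i3*) when drugs or bile acids bind or activate them, and the same receptors are known to raise *Alas1* and *Por*. *Cyp3a13* is known as a family member that is expressed in the intestine as well as in the liver.

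Between 17457106 and 24461854 counts were assigned to genes per library, and p-values judge group differences against the spread between these mice. Hepatocyte markers summed to 160538 to 174053 CPM (the counts of a gene scaled to a common library size) with vehicle and 151421 to 195043 with ISOGK. Of these markers 0 of 9 differed in edgeR at an adjusted p under 0.05, against 7.55% of all genes tested. At an unadjusted p under 0.05 there was 1 of them (*Tat*). Skeletal muscle markers summed to 1843 counts in vehicle-treated mouse 4 and to 0 to 14 in the other libraries. Since whole liver was sequenced, fewer cells of a type and less RNA per cell cannot be told apart.

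In GRCm38 (mm10), *Cyp3a11* lies on chromosome 5 from 145854426 to 145879964 on the minus strand, inside a cluster of 8 protein-coding *Cyp3a* genes that spans 768 kb. *Cyp3a44* (145773983 to 145805874), *Cyp3a25* (145977194 to 146009618) and *Cyp3a59* (146079257 to 146113287) belong to the same cluster. *Cyp3a13* stands apart on chromosome 5, from 137892932 to 137921619, at a distance of 7.42 Mb from the cluster. *Por* lies on chromosome 5 as well, from 135670033 to 135735326, and *Alas1* on chromosome 9, from 106233455 to 106248654.

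The 250 bases before the start sites of *Cyp3a11* (chr5:145879855-145880104), *Cyp3a13* (chr5:137921620-137921869) and *Cyp3a25* (chr5:146009619-146009868) are shown because these genes carried nearly all *Cyp3a* counts and responded unequally. They are RefSeq windows of GRCm38.p6, all 3 on the minus strand, written 5′ to 3′. Capitals mark AGGTCA or AGTTCA on either strand, the 6-base elements to which nuclear receptors such as PXR and CAR bind as pairs.
Cyp3a11: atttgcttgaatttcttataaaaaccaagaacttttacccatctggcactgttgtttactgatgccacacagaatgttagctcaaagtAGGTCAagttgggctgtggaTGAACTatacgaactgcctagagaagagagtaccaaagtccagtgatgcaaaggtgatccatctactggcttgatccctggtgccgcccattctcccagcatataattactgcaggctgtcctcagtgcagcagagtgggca
Cyp3a13: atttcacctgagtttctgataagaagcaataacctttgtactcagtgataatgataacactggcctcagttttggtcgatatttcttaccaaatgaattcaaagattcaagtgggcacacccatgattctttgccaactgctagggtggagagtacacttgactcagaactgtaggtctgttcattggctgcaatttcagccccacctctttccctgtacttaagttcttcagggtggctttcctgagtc
Cyp3a25: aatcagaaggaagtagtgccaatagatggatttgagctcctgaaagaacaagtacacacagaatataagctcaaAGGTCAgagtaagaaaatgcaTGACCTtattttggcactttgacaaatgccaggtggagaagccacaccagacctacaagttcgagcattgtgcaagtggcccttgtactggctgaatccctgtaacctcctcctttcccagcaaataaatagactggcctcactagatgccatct
The *Cyp3a11* window holds AGGTCA at -162 and the reverse complement of AGTTCA at -142, counted from the start site. The *Cyp3a25* window holds AGGTCA at -176 and its reverse complement at -155, and *Cyp3a59* holds the same pair at -177 and -156. No element was matched in the windows of *Cyp3a13*, *Por* or *Alas1*, which says only that these letters are absent from the windows searched, from 250 bases before to 50 bases after the start. Of 32851 such mouse windows, 16.3% hold AGGTCA and 14.0% hold AGTTCA. Paired elements, as direct repeats spaced by 3 or 4 bases or everted repeats spaced by 6, were matched in none of the 10 genes and in at most 0.0274% of all windows. Over the whole window the promoters of *Cyp3a25* and *Cyp3a59* were 95.7% identical, whereas that of *Cyp3a11* was 53.7% identical to that of *Cyp3a13* and 52.9% to that of *Cyp3a25*.

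ISOGK treatment was accompanied by opposite changes of 2 *Cyp3a* genes. *Cyp3a11*, the main drug-metabolising CYP3A of mouse liver, fell, *Cyp3a13* rose, and the other members tested did not pass the test. In edgeR's quasi-likelihood test 1 of the 6 tested members was higher and 1 was lower at an adjusted p under 0.05. Among all genes tested, 4.11% were higher and 3.44% were lower, 7.55% in all. No member passed an absolute log2 fold change over 1, which 1.63% of all genes passed together with the adjusted p.

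For *Cyp3a11*, vehicle-treated mice 1 to 4 had 2098, 2751, 1971 and 2199.7 CPM. The ISOGK-treated mice had 1395, 1841, 1301 and 960.4 CPM in the same order. All 4 values with ISOGK were below all 4 with vehicle, with the lowest level in ISOGK-treated mouse 4. The mean was 2255 ± 344 CPM (SD, n = 4) with vehicle and 1374 ± 363 CPM (SD, n = 4) with ISOGK. The log2 fold change was -0.71 (edgeR, SE 0.18, 95% confidence interval -1.11 to -0.32, adjusted p = 0.0360), a level 1.64-fold lower.

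The call for *Cyp3a11* was lost in 6 of the 8 fits that left out 1 mouse. The edgeR adjusted p was 0.0691, 0.110, 0.0538 and 0.0713 without vehicle-treated mice 1, 2, 3 and 4, and 0.0577 and 0.0683 without ISOGK-treated mice 1 and 3. In all 8 of these fits the log2 fold change stayed negative, between -0.89 and -0.58. It was -0.73 without vehicle-treated mouse 4, the library with muscle transcripts.

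For *Cyp3a13*, vehicle-treated mice 1 to 4 had 256, 287, 233 and 233 CPM. The ISOGK-treated mice had 342, 369, 325 and 514 CPM. All ISOGK-treated mice lay above all vehicle-treated mice, and ISOGK-treated mouse 4, the lowest for *Cyp3a11*, was the highest for *Cyp3a13*. The mean rose from 252 ± 25.4 to 387 ± 86.1 CPM (n = 4 per group, SD), or 1.54-fold (edgeR, log2 fold change 0.62, SE 0.14, 95% confidence interval 0.31 to 0.93, adjusted p = 0.0248).

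Groups that do not overlap, as for these 2 genes of the 6 tested, were found for 15.3% of all genes tested. The call for *Cyp3a13* was lost in 4 of the 8 fits that left out 1 mouse. The edgeR adjusted p was 0.0624, 0.0729 and 0.0689 without vehicle-treated mice 1, 3 and 4, and 0.0508 without ISOGK-treated mouse 2. Its lowest value was 0.45 (log2 fold change without ISOGK-treated mouse 4) and its highest was 0.69, and it was 0.58 without vehicle-treated mouse 4.

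**Figure D1:**
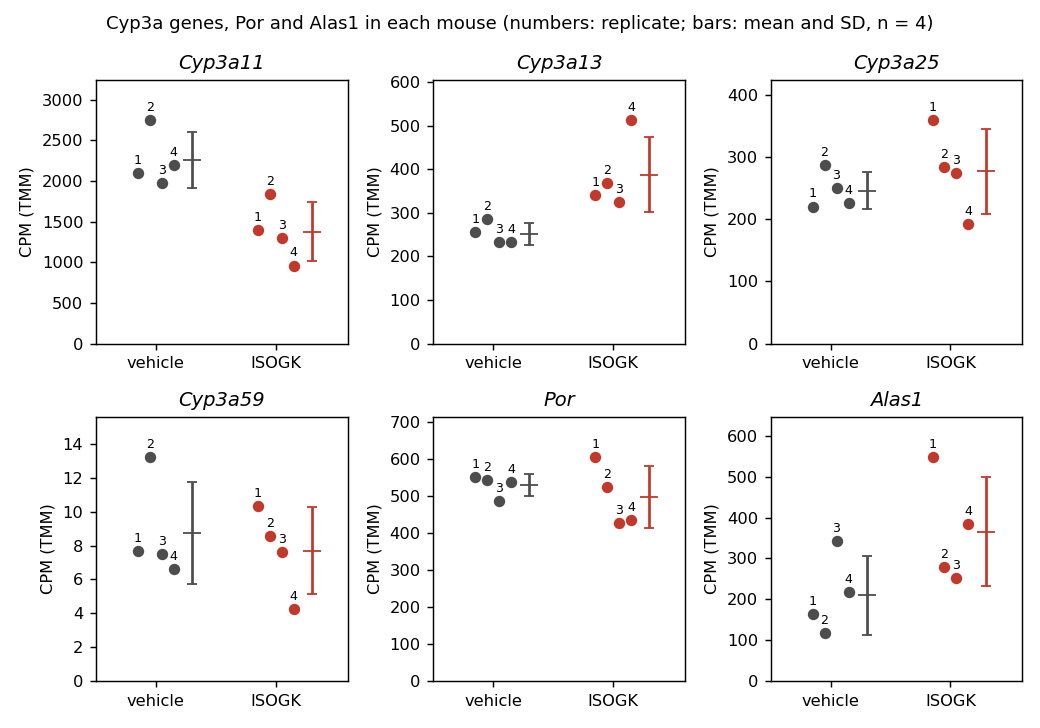
Level of each tested member in CPM scaled by TMM (y axis, from 0), with 1 point per mouse numbered by replicate in the vehicle group (grey) and the ISOGK group (red), and the mean with its SD (n = 4) beside them. The groups separate for *Cyp3a11* (lower with ISOGK) and *Cyp3a13* (higher) and overlap for *Cyp3a25*, *Cyp3a59*, *Por* and *Alas1*.

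*Cyp3a25*, a further CYP3A enzyme of mouse liver, had 221, 287, 251 and 227 CPM in vehicle-treated mice 1 to 4. The ISOGK-treated mice had 359.96, 284, 274 and 192 CPM, so that both the highest and the lowest of the 8 mice were ISOGK-treated. The means were 246 ± 30.1 and 277 ± 68.8 CPM (n = 4 per group, SD). The log2 fold change of 0.17 had a 95% confidence interval from -0.19 to 0.53 (edgeR, SE 0.17, adjusted p = 0.572).

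*Cyp3a59* was a minor member, with 7.68, 13.2, 7.48 and 6.61 CPM in vehicle-treated mice and 10.3, 8.55, 7.63 and 4.24 CPM in ISOGK-treated mice. Its groups overlapped, and its log2 fold change was -0.19 (95% confidence interval -0.82 to 0.44, edgeR adjusted p = 0.739). *Cyp3a44* had 2, 0, 0 and 1 counts in vehicle-treated mice and 0, 1, 1 and 0 counts in ISOGK-treated mice, and no fold change is given at this depth.

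The balance between the family members was then compared within each library, where it does not depend on the scaling between libraries. *Cyp3a11* made up 81.2%, 82.4%, 80.0% and 82.5% of the summed *Cyp3a* counts in vehicle-treated mice 1 to 4. In ISOGK-treated mice it made up 66.2%, 73.6%, 68.2% and 57.5%. The mean share was 81.5% ± 1.16 (SD, n = 4) with vehicle and 66.4% ± 6.68 (SD, n = 4) with ISOGK, without overlap (exact permutation test, two-sided, p = 0.0286, and no smaller p is possible with this number of mice).

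The share of *Cyp3a13* was 9.92%, 8.59%, 9.46% and 8.74% in vehicle-treated mice and 16.2%, 14.8%, 17.01% and 30.8% in ISOGK-treated mice (exact permutation test, p = 0.0286). The share of *Cyp3a25* was 8.54%, 8.60%, 10.2% and 8.50% with vehicle and 17.1%, 11.3%, 14.4% and 11.5% with ISOGK (exact permutation test, p = 0.0286). Thus *Cyp3a25* took a larger part of the *Cyp3a* counts in every ISOGK-treated mouse while its own CPM overlapped between the groups. The share of *Cyp3a59* was 0.311% ± 0.0617 and 0.372% ± 0.0997 (n = 4 per group, SD, exact permutation test, p = 0.343), and that of *Cyp3a44* was at most 0.00389%.

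The 5 shares of a mouse sum to the whole and are not independent of each other, and the p-values are unadjusted. With 1 mouse left out the smallest p is 0.0571, so none of the shares could pass 0.05 there. Summed over the family, *Cyp3a* levels were 2762 ± 393 CPM (2462 to 3338) with vehicle and 2047 ± 352 CPM (1670.1 to 2502) with ISOGK, and these sums overlapped.

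**Figure D2:**
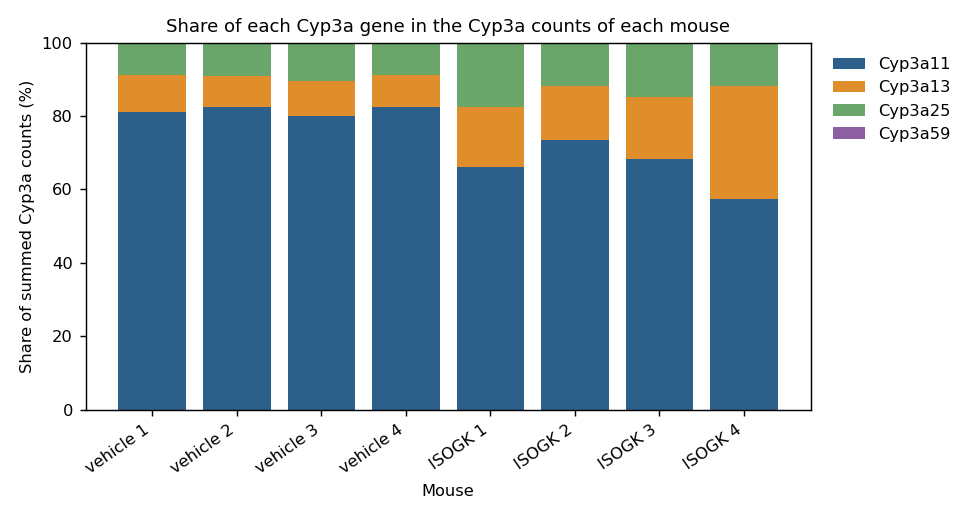
Share of *Cyp3a11*, *Cyp3a13*, *Cyp3a25* and *Cyp3a59* (colours) in the summed *Cyp3a* counts of each mouse, in percent (y axis), with 1 stacked bar per mouse. *Cyp3a11* takes 80.0% to 82.5% of the bars of vehicle-treated mice and 57.5% to 73.6% of those of ISOGK-treated mice.

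The ratio of *Cyp3a11* to *Cyp3a13* in CPM was 8.19, 9.59, 8.46 and 9.44 in vehicle-treated mice 1 to 4. In ISOGK-treated mice it was 4.08, 4.99, 4.01 and 1.87, lowest in mouse 4. Within the groups the 2 genes did not mirror each other closely. The Pearson correlation of their log2 CPM over the 8 mice was -0.785, and that of the deviations from the group means was -0.347, given as a description of mice that share a treatment.

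**Figure D3:**
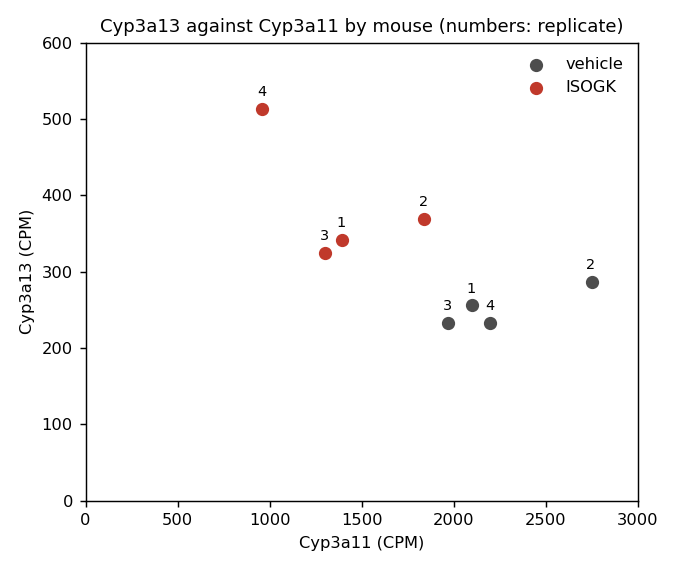
*Cyp3a13* (y axis, CPM) against *Cyp3a11* (x axis, CPM), with 1 point per mouse numbered by replicate, vehicle in grey and ISOGK in red. The vehicle-treated mice have 1971 to 2751 CPM of *Cyp3a11* and the ISOGK-treated mice 960.4 to 1841 CPM, with ISOGK-treated mouse 4 at the upper left.

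*Cyp3a25* and *Cyp3a59* were the pair of members that varied most alike, with a correlation of 0.806 over the 8 mice and 0.926 for the deviations from the group means. Their coding sequences are 97.5% identical. Of all 50-base stretches of the coding sequence, 30.3% in *Cyp3a25* and 32.3% in *Cyp3a59* also occur in another *Cyp3a* gene, so reads could have been split between them, and how the authors' counting treated such reads is not given in the sources used here.

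For *Cyp3a11*, 337 of 1466 coding stretches of 50 bases (23.0%) also occur in another family member, and 7 of 1416 stretches of 100 bases (0.494%). Its coding sequence is 95.2% identical to that of *Cyp3a41a*, 94.9% to that of *Cyp3a44* and 92.8% to that of *Cyp3a16*, and 76.7% to that of *Cyp3a13*. For *Cyp3a13*, 0 of 1463 stretches of 50 bases are shared. The coding sequence of *Cyp3a13* thus has no 50-base match in the family. It makes up 1512 of the 2956 bases of the transcript, and the remaining bases were not searched.

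Levels of different genes were compared per kb of transcript. In vehicle-treated mice *Cyp3a11* had 962 ± 147 CPM per kb (SD, n = 4), *Por* 201 ± 11.3, *Cyp3a25* 123 ± 15.1, *Cyp3a13* 85.3 ± 8.61, *Alas1* 61.7 ± 28.6 and *Cyp3a59* 4.39 ± 1.51 CPM per kb. In this order the mice of neighbouring genes overlapped only for *Cyp3a13* and *Alas1*. In ISOGK-treated mice *Cyp3a11* had 586 ± 155 CPM per kb (SD, n = 4), *Por* 188 ± 31.8, *Cyp3a25* 139 ± 34.4, *Cyp3a13* 131 ± 29.1, *Alas1* 108 ± 39.4 and *Cyp3a59* 3.87 ± 1.29. The order was the same as with vehicle, and here the ranges of *Por* and *Cyp3a25*, of *Cyp3a25* and *Cyp3a13*, and of *Cyp3a13* and *Alas1* overlapped.

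*Por*, which supplies electrons to all microsomal P450 enzymes, had 550.4, 543, 485 and 537 CPM in vehicle-treated mice 1 to 4. The ISOGK-treated mice had 603, 524, 426 and 434 CPM, on both sides of the vehicle group. Its log2 fold change of -0.09 (edgeR, SE 0.12, adjusted p = 0.699) had a 95% confidence interval from -0.35 to 0.17, the narrowest interval among the members.

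*Alas1* had 163, 117, 342 and 217 CPM in vehicle-treated mice 1 to 4, a 2.93-fold range within the group. The ISOGK-treated mice had 547.6, 278, 252 and 385 CPM. ISOGK-treated mice 1 and 4 lay above all vehicle-treated mice, whereas ISOGK-treated mice 2 and 3 lay below vehicle-treated mouse 3. The means were 210 ± 97.2 and 366 ± 134 CPM (n = 4 per group, SD), and the log2 fold change of 0.80 had a wide 95% confidence interval from -0.06 to 1.66 (edgeR, SE 0.37, adjusted p = 0.237). With 1 mouse left out the log2 fold change ranged from 0.54 without ISOGK-treated mouse 1 (edgeR adjusted p = 0.392) to 1.14 without vehicle-treated mouse 3 (edgeR adjusted p = 0.0951), and it did not pass the test in any of the 16 alternatives run.

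None of 7 other heme synthesis genes examined passed the test in edgeR, against 7.55% of all genes tested. *Cpox* and *Fech* had an unadjusted p under 0.05. The median log2 fold change of the 7 genes was -0.07, against 0.00 for all genes tested. *Fech*, which inserts iron into the ring, had 162 ± 6.34 CPM with vehicle and 137 ± 10.2 CPM with ISOGK (n = 4 per group, SD), without overlap (log2 fold change -0.25, edgeR adjusted p = 0.113). *Cpox*, an oxidase of the late pathway, had 129 ± 26.5 and 165 ± 11.2 CPM (log2 fold change 0.36, edgeR adjusted p = 0.122). *Cpox* did pass without vehicle-treated mouse 1 (edgeR adjusted p = 0.0291). The log2 fold changes of *Alas2*, the erythroid counterpart of *Alas1*, and of *Ppox* were -0.32 and -0.27 (edgeR adjusted p = 0.248 and 0.400). *Urod*, *Uros* and *Alad*, which act between the first and the late steps, had log2 fold changes of 0.03, -0.06 and -0.07.

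Of 5 heme breakdown genes, 0 passed the test in edgeR, against 7.55% of all genes tested, with 0 at an unadjusted p under 0.05. *Hmox1*, the inducible heme oxygenase, had 63.7 ± 8.45 CPM with vehicle and 59.9 ± 10.1 CPM with ISOGK (n = 4 per group, SD, log2 fold change -0.09, edgeR adjusted p = 0.725). *Blvrb*, *Blvra* and *Ugt1a1*, which reduce biliverdin and conjugate bilirubin, had log2 fold changes of 0.30, -0.12 and 0.10. *Blvrb* did pass without ISOGK-treated mouse 3 (edgeR adjusted p = 0.0382).

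Among 8 genes of electron transfer to P450 enzymes, 0 were higher and 1 was lower, against 4.11% and 3.44% of all genes tested. The median log2 fold change of the 8 genes was -0.23. *Cyb5b*, the cytochrome b5 of the outer mitochondrial membrane, fell from 263 ± 23.2 CPM (233 to 288) to 159 ± 11.7 CPM (145 to 171, n = 4 per group, SD). All ISOGK-treated mice lay below all vehicle-treated mice. With a log2 fold change of -0.73 (edgeR, SE 0.10, adjusted p = 0.00178), it kept an adjusted p under 0.05 in all 16 alternatives run.

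*Cyb5a*, the microsomal cytochrome b5 that serves P450 enzymes, had 523 ± 29.1 CPM with vehicle and 572 ± 68.5 CPM with ISOGK (log2 fold change 0.13, edgeR adjusted p = 0.501). It was named after its values were seen. *Cyb5r3*, a cytochrome b5 reductase, had 270 ± 31.5 and 214 ± 15.8 CPM (log2 fold change -0.34, edgeR adjusted p = 0.0760). *Cyb5r3* did pass in DESeq2 (Wald test, adjusted p = 0.0284) and in edgeR with library size alone as the scaling (adjusted p = 0.0287). *Fdxr* and *Fdx1*, which pass electrons to mitochondrial P450 enzymes, had log2 fold changes of -0.48 and -0.36 (edgeR adjusted p = 0.0940 and 0.113). Both passed with library size alone as the scaling (edgeR adjusted p = 0.0494 and 0.0369).

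**Figure D4:**
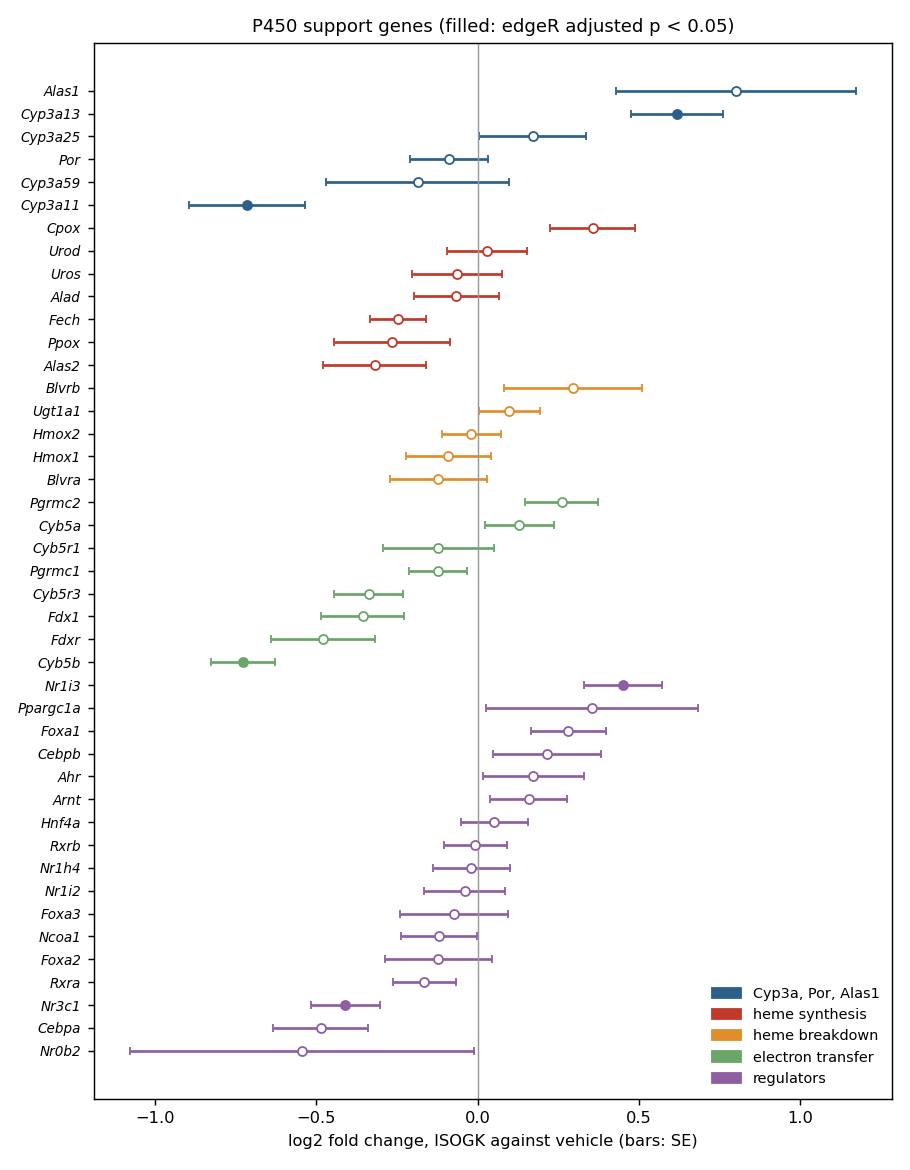
Log2 fold change of ISOGK against vehicle (x axis) with its standard error (bars, 4 mice per group) for the 6 tested members and for genes of heme synthesis, heme breakdown, electron transfer and *Cyp3a* regulation (colours). Filled points have an edgeR adjusted p under 0.05: *Cyp3a13*, *Cyp3a11*, *Cyb5b*, *Nr1i3* and *Nr3c1*.

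Of 17 tested regulators of *Cyp3a* genes, 1 was higher and 1 was lower, against 4.11% and 3.44% of all genes tested. The median log2 fold change of the regulators was -0.02. *Nr1i2*, the gene of PXR, had 50.3 ± 7.36 CPM (42.3 to 59.3) with vehicle and 48.9 ± 6.85 CPM (43.3 to 58.2) with ISOGK, with overlapping groups (log2 fold change -0.04, edgeR adjusted p = 0.881). *Nr1i3*, the gene of CAR, rose from 74.5 ± 6.35 CPM (69.2 to 83.3) to 102 ± 16.7 CPM (85.0 to 124, n = 4 per group, SD), without overlap. On the log2 scale the difference was 0.45 (edgeR, SE 0.12, adjusted p = 0.0415).

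The call for *Nr1i3* was lost without vehicle-treated mice 1, 2, 3 and 4 (edgeR adjusted p = 0.114, 0.125, 0.0553 and 0.0867) and without ISOGK-treated mice 3 and 4 (edgeR adjusted p = 0.0601 and 0.0725). It was also lost with library size alone as the scaling (edgeR adjusted p = 0.153).

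*Nr3c1*, the glucocorticoid receptor gene, fell from 51.3 ± 4.74 CPM (45.0 to 55.1) to 38.6 ± 4.32 CPM (32.8 to 43.2, n = 4 per group, SD), without overlap (edgeR, log2 fold change -0.41, SE 0.11, adjusted p = 0.0376). Its call was lost without vehicle-treated mice 1, 2 and 3 (edgeR adjusted p = 0.102, 0.121 and 0.0822) and without ISOGK-treated mice 1, 2 and 4 (edgeR adjusted p = 0.0572, 0.0969 and 0.0603). With the replicate number as a block the adjusted p was 0.0599. *Cebpa* and *Foxa1*, which encode factors of liver gene expression, had log2 fold changes of -0.49 and 0.28 (edgeR adjusted p = 0.0679 and 0.158). *Cebpa* did pass in 2 of the 16 alternatives run. *Vdr* had at most 7 counts and was not tested.

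Other genes that PXR and CAR are known to induce were listed beside *Cyp3a11*. Of 18 tested, 0 were higher and 4 were lower, against 4.11% and 3.44% of all genes tested, and 14 did not pass the test. The median log2 fold change of the 18 was -0.26, with 4 positive and 14 negative values. This list was chosen with earlier results of these data known. *Gstm3*, a glutathione transferase gene, went from 26.6 ± 11.4 CPM (SD, n = 4) down to 5.46 ± 0.357 CPM and fell by 2.28 on the log2 scale (adjusted p = 0.00178 in edgeR). *Cyp2c29*, an epoxygenase gene, fell from 953 ± 92.5 to 594 ± 98.4 CPM (log2 fold change -0.68, edgeR adjusted p = 0.00900), and both genes kept their calls in all 16 alternatives run.

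The log2 fold changes of *Gstm1* and *Cyp2c55* were -0.52 and -1.73 (edgeR adjusted p = 0.0322 and 0.0376). *Gstm1* lost its call without vehicle-treated mice 2, 3 and 4 or ISOGK-treated mice 1 and 2, with adjusted p-values up to 0.107. *Cyp2c55*, with 2 to 47 counts per library, lost its call without vehicle-treated mice 1, 2 and 4 or ISOGK-treated mice 1, 2 and 4, with adjusted p-values up to 0.130. With all mice it was lost in limma-voom (adjusted p = 0.0551) and with the replicate number as a block in edgeR (adjusted p = 0.0561). *Cyp2b10*, the classical target of CAR, had 7.44 ± 3.87 CPM with vehicle and 1.92 ± 1.21 CPM with ISOGK. A log2 fold change of -1.96 missed the threshold (adjusted p = 0.0631 in edgeR). It was named after its values were seen.

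Several *Cyp3a* genes, among them *Cyp3a16*, *Cyp3a41a* and *Cyp3a44*, are known to differ between the sexes in liver, so sex-biased genes were counted in these male mice. Of 9 tested female-biased genes, 0 were higher and 3 were lower, against 4.11% and 3.44% of all genes tested. Over the 9 genes 4 log2 fold changes were positive and 5 were negative, with a median of -0.33. *Cyp2b9* had 9.97 to 19.3 CPM with vehicle and 0.245 to 2.26 CPM with ISOGK. *Prlr*, the prolactin receptor gene, and *Atp6v0d2* fell, with log2 fold changes of -0.63 and -1.49 (edgeR adjusted p = 0.0203 and 0.0361). The call for *Prlr* was lost without vehicle-treated mice 2 and 4 or ISOGK-treated mouse 2, and that for *Atp6v0d2* without vehicle-treated mice 1, 2 and 4 or ISOGK-treated mice 2 and 3, with adjusted p-values up to 0.0716 and 0.0904. The call for *Atp6v0d2* was also lost in edgeR with the replicate number as a block (adjusted p = 0.0870) and with no filter beyond 1 count (adjusted p = 0.0545).

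Of 13 male-biased genes, 3 were higher and 0 were lower, against 4.11% and 3.44% of all genes tested. The median over the 13 genes was a log2 fold change of 0.57. *Ugt2b38*, a glucuronosyltransferase gene, rose from 46.8 ± 6.04 to 74.7 ± 9.90 CPM (n = 4 per group, SD, log2 fold change 0.68, edgeR adjusted p = 0.00651). *Gstp1* and *Cyp2d9* rose by 0.57 and 0.53 on the log2 scale (edgeR adjusted p = 0.0316 and 0.0494), with both calls lost without any 1 vehicle-treated mouse, that of *Gstp1* also without ISOGK-treated mouse 1 or 2, and that of *Cyp2d9* also without ISOGK-treated mouse 1, 2 or 4. Their adjusted p-values in these fits reached 0.0911 and 0.135. Both calls were also lost with library size alone as the scaling (edgeR adjusted p = 0.0512 and 0.109). *Cyp2d9* kept its call in 4 of the 16 alternatives, and lost it with all mice in limma-voom (adjusted p = 0.0684), with DESeq2's size factors (adjusted p = 0.0502), without the robust option (adjusted p = 0.0584) and with the replicate block (adjusted p = 0.0769) in edgeR as well. Of the 13 genes, 2 had negative log2 fold changes, neither past the threshold, and both are named after their values were seen. *Hsd3b5*, a hydroxysteroid dehydrogenase gene, had 71.4 ± 14.3 CPM with vehicle and 17.3 ± 14.5 CPM with ISOGK, without overlap (edgeR, log2 fold change -2.04, adjusted p = 0.0708). *Slco1a1*, an organic anion carrier gene, had a log2 fold change of -0.79 (adjusted p = 0.110 in edgeR).

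*Cyp3a11* is known to be expressed most around the central vein of the liver lobule. Of 9 pericentral hepatocyte genes 1 was higher and 1 was lower, against 4.11% and 3.44% of all genes tested. *Cyp1a2* fell from 345 ± 22.5 to 247 ± 16.8 CPM (n = 4 per group, SD, log2 fold change -0.48, edgeR adjusted p = 0.0101). *Oat* rose by 0.57 on the log2 scale (edgeR adjusted p = 0.0461), a call lost in every fit that left out 1 mouse except that without ISOGK-treated mouse 3, with adjusted p-values up to 0.126. With all mice this call was lost in limma-voom (adjusted p = 0.0527), and in edgeR with library size alone (adjusted p = 0.0871) and without the robust option (adjusted p = 0.0541). *Glul*, the glutamine synthetase of the innermost pericentral hepatocytes, had 1137 ± 58.0 and 1176 ± 163 CPM (log2 fold change 0.05, edgeR adjusted p = 0.836), and it was named after its values were seen.

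Markers of other cell types were counted beside these results, and each count stands against the 7.55% of all genes tested that passed. For Kupffer cells 0 of 6 passed the test in edgeR, with 1 at an unadjusted p under 0.05. Of these markers 5 had negative and 1 had a positive log2 fold change, with a median of -0.65. Their summed level was 924 to 1195 CPM with vehicle and 733 to 958 CPM with ISOGK. Stellate cell markers (0 of 6), endothelial markers (0 of 6) and lymphocyte markers (0 of 3 tested) did not pass the test, with 1 of all these at an unadjusted p under 0.05 (*Lrat*, log2 fold change -0.89). For cholangiocytes 1 of 5 passed (*Sox9*, log2 fold change 0.51, edgeR adjusted p = 0.0494), against 7.55% of all genes tested, and all 5 had positive values. The summed level of the cholangiocyte markers was 27.5 to 34.8 CPM with vehicle and 28.2 to 69.1 CPM with ISOGK. Of the enterocyte markers analysed, *Fabp2* had 22.8 to 41.0 CPM, and *Lct* had at most 1 count in each library. The part of these cell types in the levels of *Cyp3a* genes was not tested.

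The genes whose level followed each member most closely over the 8 mice were listed by Pearson correlation of log2 CPM among 8704 genes with at least 5 CPM. For *Cyp3a11* they were *Scnn1a* (r = 0.984), *Kat2b* (0.978), *Pea15a* (0.967) and *Aqp8* (0.965), a water channel gene. With the group means taken out the correlations were 0.958, 0.951, 0.922 and 0.905. *Scnn1a*, a subunit gene of the epithelial sodium channel, and *Pea15a* had log2 fold changes of -0.47 and -0.40 (edgeR adjusted p = 0.0374 and 0.0329). Both calls were lost without any 1 vehicle-treated mouse or without ISOGK-treated mouse 4, and that of *Pea15a* also without ISOGK-treated mouse 1. The edgeR adjusted p-values in these fits reached 0.121 and 0.114. *Kat2b* and *Aqp8* had log2 fold changes of -0.20 and -1.10 and did not pass (edgeR adjusted p = 0.192 and 0.0637). *Aqp8* did pass in 7 of the 16 alternatives run. These genes were picked for following *Cyp3a11*, whose groups separate, so their fold changes are not independent of it.

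For *Por* the closest genes were *Wbp1l* (r = 0.951), *Rnpc3* (0.951), *Osbpl11* (0.931) and *Ugt3a1* (0.922), and for *Alas1* they were *Gna11* (0.960), *Marcksl1* (0.944), *Rrp7a* (0.922) and *Mrpl36* (0.916). With the group means taken out these correlations were 0.930 to 0.963 for *Por* and 0.869 to 0.935 for *Alas1*. The mice share libraries across these genes, the genes were picked as the highest of all those compared, and the correlations are descriptions without a test.

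**Figure D5:**
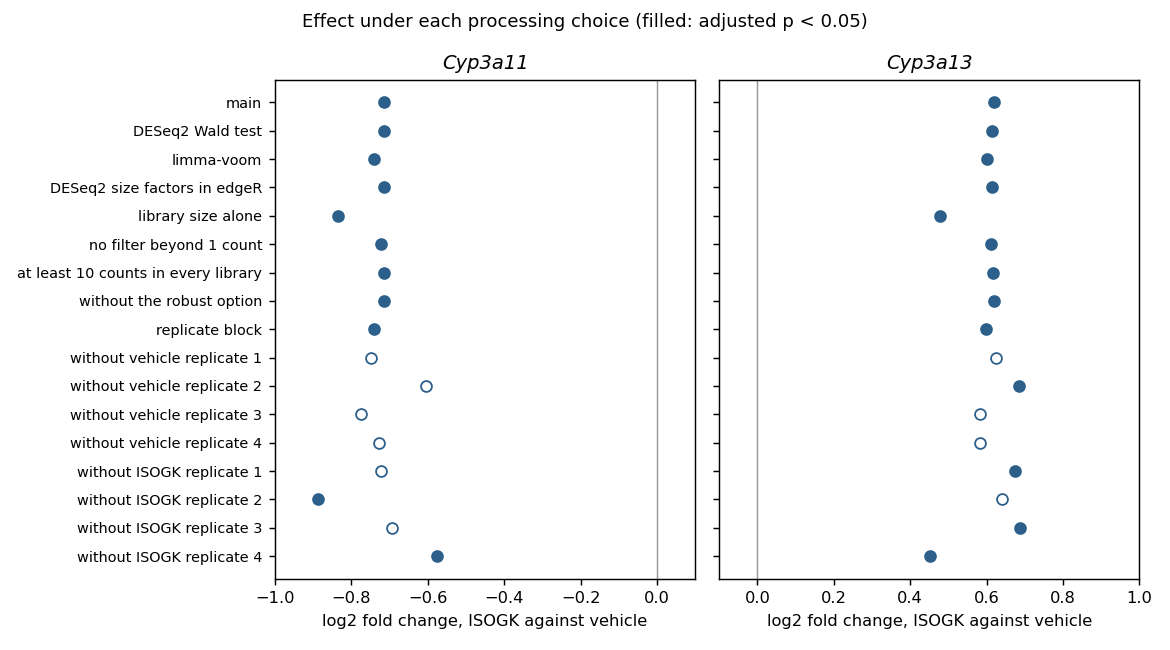
Log2 fold change of *Cyp3a11* (left) and *Cyp3a13* (right) in ISOGK-treated against vehicle-treated mice (x axis) under the reported analysis and 16 alternatives (y axis). Filled points have an adjusted p under 0.05, and open points are found only among the fits that left out 1 mouse, 6 for *Cyp3a11* and 4 for *Cyp3a13*.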

How the data were processed

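Liver RNA of 8 *Apoe*-/- mice was sequenced in the study. Per the labels, reads were placed on mm10, and per the paper's methods the authors aligned single-end reads with HISAT2 and counted them with StringTie. The deposited values are raw counts per gene symbol, without normalization or pooling, and the use of strand is not given in the sources used here. The 4 DMSO columns were read as vehicle, and each library went to its group by its label. Counts were filtered with filterByExpr (minimum count 10, minimum total 15), scaled by TMM and fitted in edgeR 4.0.16 under R 4.3.3 (quasi-likelihood, robust), with Benjamini-Hochberg adjustment over 12307 genes. CPM use TMM factors, and log2 CPM a prior count of 2. Shares were tested with exact permutation tests in SciPy 1.17.1. The fit was tested on simulated data. The common biological coefficient of variation was 0.164. Libraries within a group differed by far more than sampling noise (chi-square per gene 17.1 to 93.4, about 1 being expected from sampling noise alone).

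The members and lists were chosen with earlier results of these data known. Named genes were the members, up to 4 genes with the smallest p of each list, the heme synthesis genes (some genes under this rule are left out here), *Nr1i2*, *Nr1i3*, and the 4 genes most like *Cyp3a11*, *Por* and *Alas1*. Coordinates, transcript lengths and coding sequences are from GENCODE M21 (16211 of 16540 symbols matched, all 10 members among them), and promoters from RefSeq (GRCm38.p6). The alternatives comprised DESeq2 1.42.0 (Wald test), limma-voom (limma 3.58.1), other scalings and filters, a replicate block and each mouse left out in turn.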

Additional observations from a re-analysis of the deposited data

Results flagged for a closer look

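The share of *Cyp3a13* in the *Cyp3a* counts was 30.8% in ISOGK-treated mouse 4, against 14.8% to 17.01% in the other ISOGK-treated mice. The distance to the next mouse covered 0.859 of that group's range, which is past Dixon's critical value for a group of 4. Over all genes the library of ISOGK-treated mouse 4 also differed most from the rest of its group. Its chi-square per gene was 81.0 to 93.4 against the other ISOGK-treated mice, which had 30.9 to 63.0 among themselves. When this mouse was left out, the share of *Cyp3a13* was 6.82 percentage points higher with ISOGK, against 10.5 with all mice, and the log2 fold change of *Cyp3a13* was 0.45 (edgeR adjusted p = 0.0273).

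The share of *Cyp3a25* was 10.2% in vehicle-treated mouse 3, against 8.50% to 8.60% among the remaining 3, and the distance to the next mouse covered 0.944 of the range. Without this mouse the share was 5.02 percentage points higher with ISOGK, against 4.61 with all mice. Dixon's test was applied to 22 groups of 4 values and 2 were past its critical value, whereas chance alone gives 1.1, about 1 in 20.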

How the results depend on the processing

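Both member calls kept their direction in all 16 alternatives and their adjusted p under 0.05 in the 8 that left out no mouse. Members called went from 2 to between 0 and 2 with 1 mouse left out. Genes called went from 929 to 1435 with DESeq2 and to between 379 (without vehicle-treated mouse 2) and 1235 with 1 mouse left out. Genes called on the pathway lists went from 15 to 27 with DESeq2 and to between 6 (without vehicle-treated mouse 2) and 19. Shares with p under 0.05 went from 3 to 0 with 1 mouse left out, where 3 mice against 4 cannot reach it. With library size alone the median log2 fold change over all genes shifted by -0.13, which turned 506 higher and 423 lower genes into 262 and 804, while the log2 fold changes of *Cyp3a11* and *Cyp3a13* were -0.83 and 0.48.

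The sources used here do not say whether the replicate numbers pair the mice. Correlations of deviations were 0.013, -0.0144, 0.0754 and 0.0849 for equal numbers and ranged from -0.207 to 0.219 for unequal numbers. With the replicate block 827 genes were called, *Cyp3a11* had -0.74 (adjusted p = 0.0120) and *Cyp3a13* 0.60 (adjusted p = 0.0341).

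Log2 fold changes near 0 changed sign. With library size alone they were -0.029 for *Ugt1a1*, -0.11 for *Urod*, -0.061 for *Gna11* and -0.030 for *Rrp7a*. With 1 mouse left out they ranged from -0.37 to 0.086 for *Cyp3a59*, -0.17 to 0.010 for *Hmox1*, -0.15 to 0.032 for *Alad*, -0.050 to 0.11 for *Urod*, -0.14 to 0.049 for *Nr1i2*, -0.15 to 0.012 for *Rnpc3*, -0.17 to 0.016 for *Osbpl11* and -0.15 to 0.064 for *Ugt3a1*. The causes were not tested. *Cyp3a44* could not be tested at its depth, and the intervals of the group differences rest on these mice only.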
